A study of Rattus norvegicus with 8 samples.

Results

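The abundance of each transcript in the axonal compartment was set against its abundance in the cell body compartment of rat embryonic hippocampal neurons. The members were the Ensembl genes that had a gene symbol and reached a mean of at least 10 normalized counts in each compartment, and 5992 of the 18310 genes with a symbol (32.7%, of 26405 identifiers in each table) met this rule. Most of the rest fell under the minimum: 8483 symbols in both compartments, 3275 in axons alone and 560 in the cell bodies alone. Each member's value was the log2 ratio of its axonal to its somatic mean, less the median of that ratio over all members. A value of 1 is thus a 2-fold higher and a value of -1 a 2-fold lower axonal to somatic ratio than that of the median member. Means pool both treatments and each table was normalized on its own, so the values are a description, and no test between compartments was run.

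The culture lasted 10 to 14 days, in chambers whose microfluidic channels let axons, but not cell bodies, enter a second compartment. Vehicle or soluble oligomeric Abeta(1-42), the amyloid peptide, was then given to the axons alone for 24 h. The 8 samples form 4 groups of 2 (axons Abeta, axons control, soma Abeta, soma control). RNA of each compartment was sequenced, and the labels name no separate cultures or animals for the samples of a group, so the spread between them may be technical. The cell body compartment also holds the neurites around the cell bodies, so an axonal stretch lies on both sides of the ratio.

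Axons carry messenger RNAs far from the nucleus on motor-driven granules and translate some of them locally, which supplies growth cones, mitochondria and injury signals with new protein. Transcripts of cytoskeletal proteins such as beta-actin, of ribosomal proteins and of mitochondrial proteins are classic examples of axonal RNAs, while transcripts of nuclear transcription factors and of dendritic proteins are usually taken as markers of the cell body and dendrites. RNA of glia and other cells of the culture can also reach either compartment. In such bulk RNA, fewer cells of a type and less RNA per cell cannot be told apart.

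The 8 libraries were not alike, which bears on every value below. The reads of each library, recovered from the deposited means, numbered 231854 to 425420 in axons. In soma, 1 library on each side of the deposited treatment comparison was deep (2695075 and 3656302 recovered reads) and 1 was shallow (262971 and 290259). The libraries could be assigned to a compartment and to the positive or negative side of the deposited comparison, but not to a treatment or a sample title. Deep and shallow name these libraries by their reads, but their normalized counts differed too, as the spreads below show. The cause of that difference was not tested. Across the 5939 members recovered in all 8 libraries, the SD of the log2 ratio between libraries was 0.302 for the deep pair, 0.572 for the shallow pair and 1.01 to 1.13 between a deep and a shallow somatic library. A positive-side axonal library differed from a shallow somatic one by an SD of 0.946 to 1.04, and a negative-side axonal library from a deep somatic one by 1.54 to 1.71. Over all these members, the spread between somatic depths thus overlapped that between positive-side axonal and shallow somatic libraries. Axonal libraries differed from each other by 0.839 within the positive side, 1.25 within the negative side and 1.07 to 1.32 between sides. By this measure the positive-side axonal libraries were closer to the shallow somatic ones than to the negative-side axonal ones. Negative-side axonal libraries differed from shallow somatic ones by 1.23 to 1.35. Over 548 more abundant members, the SD was 0.25 for the deep pair, 0.28 for the shallow pair and 1.01 to 1.11 between somatic depths. Against shallow soma it was 0.72 to 0.78 for positive-side and 0.69 to 0.93 for negative-side axonal libraries. Among these members, the somatic depths thus differed more from each other than shallow soma did from the axonal libraries. Results are therefore also given for the 4 combinations of an axonal side with a somatic depth.

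**Figure D1:**
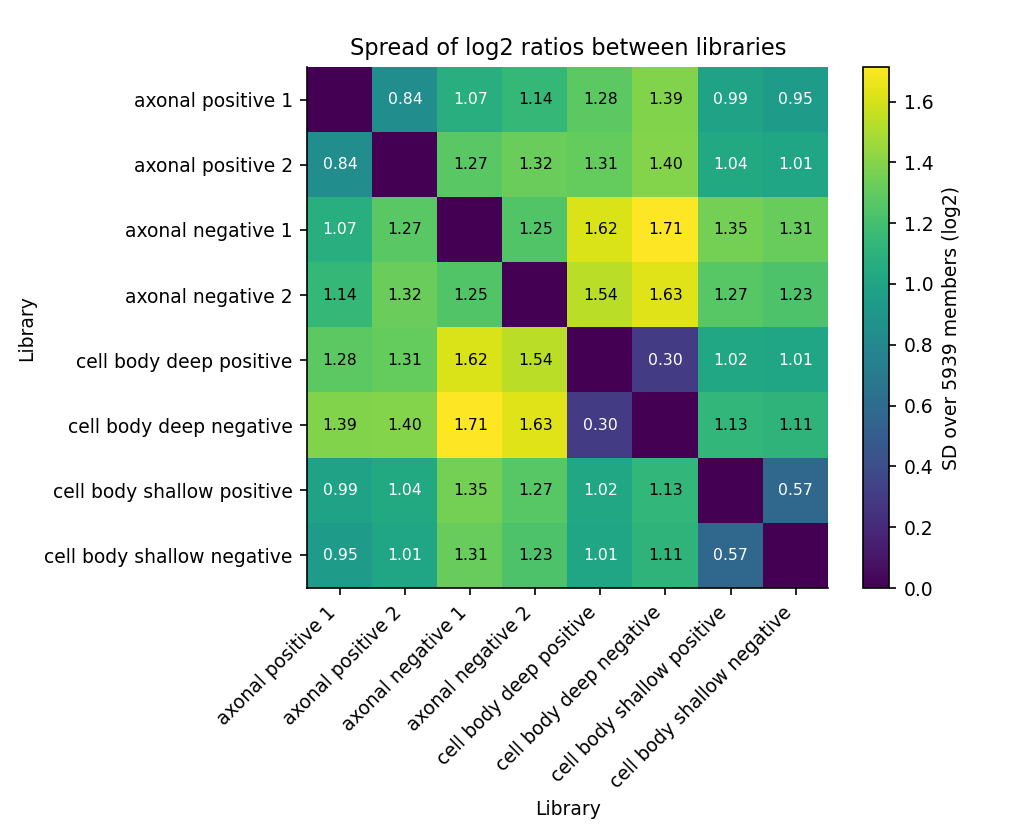
Standard deviation, over 5939 members, of the log2 ratio of normalized counts between each pair of the 8 recovered libraries (rows and columns; log2 units, the diagonal is 0). The deep cell body pair is the most alike (0.30), the shallow pair next (0.57), and both negative-side axonal libraries lie farthest from the deep cell body libraries (1.54 to 1.71).

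The median member had an axonal mean of 0.289 times its somatic mean (log2 ratio -1.79), so that an axonal normalized count corresponds to 3.46 somatic ones at the median. Values ran from -3.12 to 6.41, with quartiles at -0.57 and 0.66. By the 2-fold rule, 954 members were higher (15.9%) and 610 were lower in axons (10.2%), among them 195 at least 4-fold higher and 29 at least 4-fold lower. The balance of these counts turned with the scaling. With shares of the summed means, which move every value by -0.52, 435 members were higher and 1703 lower. These shares rest largely on 1 member with a LOC symbol. Without it, members held 8.75% instead of 19.8% of all summed axonal means, and 18.3% instead of 24.8% of somatic ones. Values by shares without it were not computed. With values centred on the members with both means of at least 100, a shift of 0.34, 1510 were higher and 241 lower. A value is thus relative to the median member. Whether libraries overlap was judged on a common scale throughout, with axonal counts multiplied by 3.46, and not on the counts as printed. On that scale, all 4 axonal libraries lay above all 4 somatic ones for 543 of the 5939 recovered members (9.14%), and below them for 565 (9.51%). In all 4 combinations of side and depth, 1487 members lay above 0 (25%) and 1470 below (24.8%), and 269 were at least 2-fold higher and 59 at least 2-fold lower each time. Of the recovered members that were 2-fold higher by the means, 848 of 953 lay above 0 in every combination, and of those 2-fold lower, 518 of 580 lay below. The combinations use the same libraries as the means, so these counts are in part built in and are no support for the values. Against the deep somatic libraries alone, 1357 members were 2-fold higher and 1115 lower, and against the shallow ones alone 756 and 318.

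**Figure D2:**
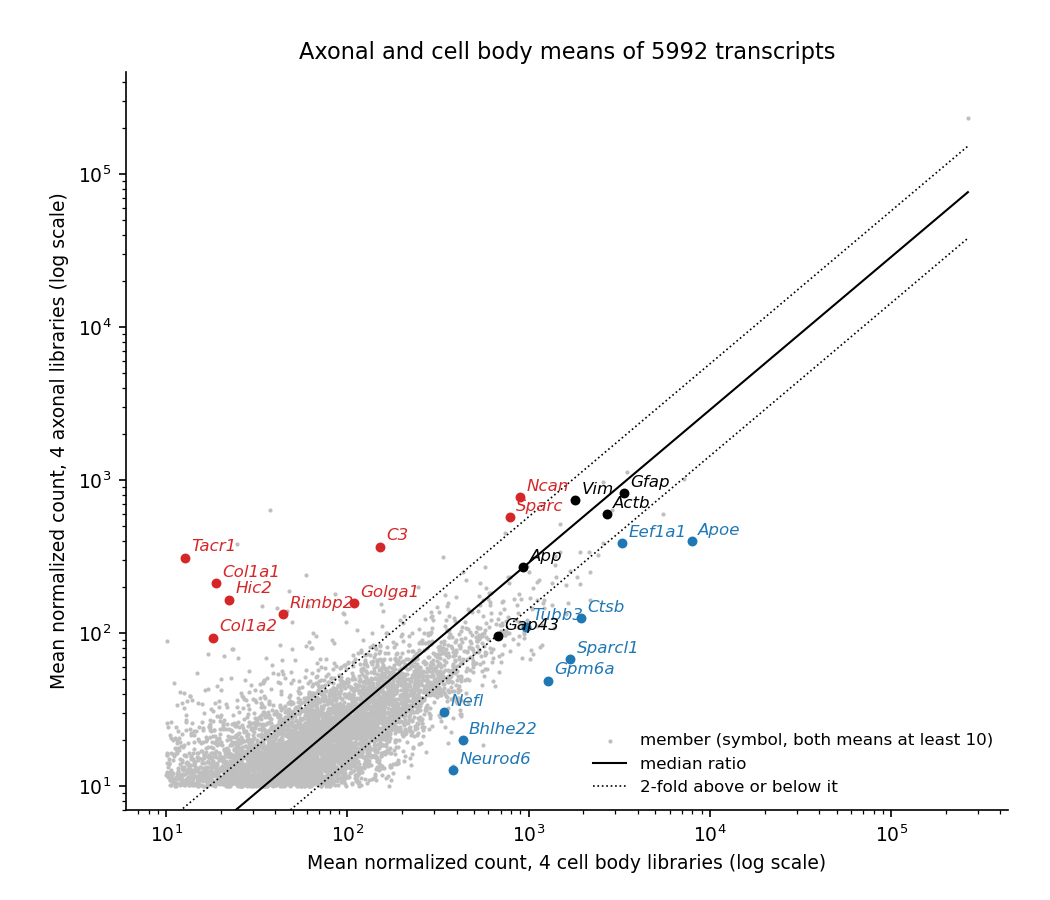
Mean normalized count in axons against that in the cell bodies, each over 4 libraries and both on log scales, for the 5992 members (grey), with the median ratio (solid line) and 2-fold limits (dotted). Named members high in axons (red) include Tacr1 (312 against 12.7), those low in axons (blue) include Neurod6 (12.7 against 382), and Actb, App and Gfap (black) lie between the limits.

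Values fell with somatic abundance, in part because of the rule itself. A member with a somatic mean under 17.3 can only have a value above 1, since its axonal mean is at least 10, and this held for 309 members (5.16%). A value of -1 or less requires a somatic mean of at least 69.2. The median value was 1.30 for the 935 members with somatic means of 10 to 30, where another 2200 symbols were left out for an axonal mean under 10. It was 0.12 at 30 to 100 (2926 members), -0.52 at 100 to 300 (1718 members), -0.87 at 300 to 1000 (361 members) and -1.07 at 1000 or more (52 members). In the last 2 ranges the axonal minimum left out 1 and 0 symbols. Among the 3102 members with a somatic mean of at least 69.2, 610 were 2-fold lower (19.7%) and 65 were 2-fold higher (2.10%), and another 115 symbols of that abundance were left out for an axonal mean under 10. The 200 members just inside the axonal minimum (means of 10 to 10.5) had a median value of 0.00, and the 200 symbols just outside it (9.58 and up) had a median of -0.07.

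**Figure D3:**
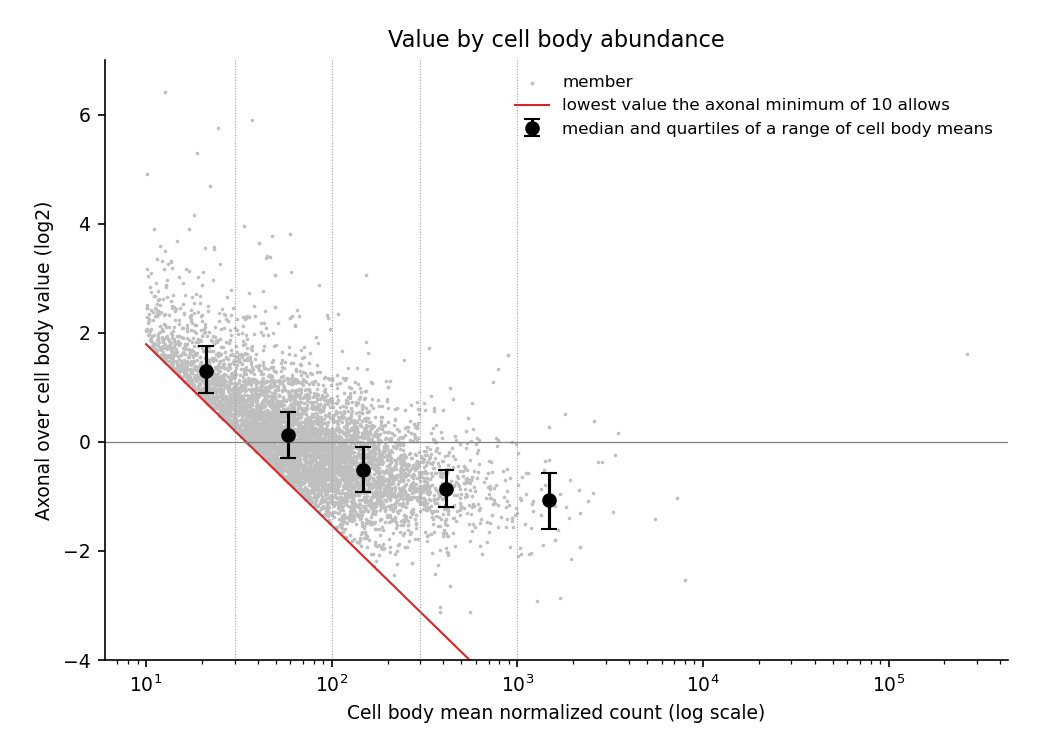
Axonal over cell body value (log2) of each member against its cell body mean (log scale), with the median and quartiles in 5 ranges of the mean (dotted limits) and the lowest value that an axonal mean of 10 allows (red). Medians fall from 1.30 to -1.07, and the red line bounds the members with low cell body means from below.

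Transcripts of ribosomal proteins were low in axons relative to the median member. Of the 33 cytosolic ribosomal protein genes with a symbol in the tables, 30 were members, with a median value of -0.88, and 10 were 2-fold lower and 0 higher (10.2% and 15.9% of all members). Their median stayed below 0 in all 4 combinations, at -1.61 and -0.62 for negative-side axons against deep and shallow soma and at -1.02 and -0.27 for positive-side axons. With no axonal minimum (32 genes, pseudocount 1) it was -0.87, and within ranges of somatic abundance -0.35. Normalized counts of Rpl23, a protein of the large subunit, were 21.9 and 43.0 in positive-side and 8.40 and 37.8 in negative-side axonal libraries, against 520 and 674 in the deep and 165 and 166 in the shallow somatic ones (value -1.99). All 4 axonal libraries lay below all 4 somatic ones on the common scale. Rplp0, a protein of the ribosomal stalk, lay closer to the median member, with 124, 148, 141 and 83.7 counts in axons and 601 to 788 in soma (value -0.66). Rps15 and Rps21, both of the small subunit, had the highest values of the list, 0.06 and 0.11.

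Ribosomal protein transcripts typically begin with a cytosine followed by a run of pyrimidines, the 5′ terminal oligopyrimidine motif through which growth signals control their translation. The 30 bases around the RefSeq start of 6 ribosomal protein genes (assembly GRCr8, 10 bases before the start and 20 from it, 5′ to 3′) show which annotated starts carry it, and the first 5 bases from the start are in capitals.
Rpl23 (value -1.99, chr10:83272165-83272194, minus strand): cttcctttctGACTCtttccggacgctcaa
Rpl41 (value -1.55, chr7:1563478-1563507, minus strand): ctcggaagtgACGACaccaagcacgccatt
Rpl34 (value -1.12, chr2:221962264-221962293, minus strand): tccttttcctCTTCCggggacggtgcttag
Rps18 (value -0.99, chr20:4933735-4933764, plus strand): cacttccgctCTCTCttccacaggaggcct
Rplp0 (value -0.66, chr12:46718371-46718400, minus strand): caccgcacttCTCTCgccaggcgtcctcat
Rps15 (value 0.06, chr7:10068096-10068125, minus strand): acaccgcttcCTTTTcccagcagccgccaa
The first 2 have no such motif at the annotated start and the other 4 have it. These 6 do not stand for the list by share or by value: Rps21 (0.11), its highest member, has no match. Searched on the gene's strand as a C at the start followed by 4 bases that are each C or T, the motif was found at 7 of 21 ribosomal protein members with a promoter in the table (33.3%), at 137 of 4830 members (2.84%) and at 722 of all 27457 promoters (2.63%). Ribosomal protein members with the motif had a median value of -0.66 and those without it -0.84. Over all members, the motif was found at 3.35%, 2.73% and 2.42% of the low, middle and high of 3 equal groups by value. No match says only that these letters are not at the annotated start.

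Among translation factors, 37 of 41 genes were members (median -0.41), 9 were 2-fold lower and 0 were higher. Within ranges of somatic abundance their median was 0.01. The lowest were Eif4a2, a helicase of cap-dependent initiation (-1.55), and Eif4e, the cap-binding protein (-1.47). Eef1a1, the elongation factor that delivers aminoacyl-tRNA, had the highest axonal mean of the list at 389 and a value of -1.28. Eif4g3, a scaffold of the cap complex, and Eif5b, which joins the subunits, stood at 0.46 and 0.87. Eif4g3 was at 1.50 against the deep and -0.21 against the shallow somatic libraries.

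Mitochondrial and protein turnover genes also had medians below 0. Of 61 nuclear-encoded oxidative phosphorylation genes, 40 were members, 19 were left out for a low axonal mean, and 14 of the members were 2-fold lower and 0 higher (median -0.78, or -0.73 over 59 genes with no axonal minimum). Uqcrh, a hinge protein of complex III, was lowest at -2.45, with 5.40 to 14.4 counts over the axonal libraries, 336 and 364 in deep and 104 and 62.6 in shallow soma. Atp5b, the catalytic subunit of the ATP synthase, had an axonal mean of 153 and a value of -0.69. Cox4i1, a cytochrome oxidase subunit described in sympathetic axons, stood at -0.67. Mitochondrial ribosomal proteins mostly missed the minimum: 55 of 67 had an axonal mean under 10. The 10 that were members had a median of -0.01, and with no axonal minimum the 65 genes had a median of -0.31.

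The proteasome list (31 of 34 genes, median -0.51) ran from Psma4, a subunit of the core particle, at -2.23 to Psmc3, an ATPase of the regulatory particle, at 0.78. Of 39 lysosomal and vacuolar ATPase genes, 35 were members with a median of -0.87, and 14 were 2-fold lower and 0 higher. Ctsb, the protease cathepsin B, had 166 and 120 counts in positive-side and 71.4 and 149 in negative-side axonal libraries on a somatic mean of 1943 (value -2.15). Npc1, a lysosomal cholesterol exporter, and Tpp1, a peptidase, lay at the other end with 0.92 and 0.82. Against the shallow somatic libraries Tpp1 was at 0.13 and against the deep ones at 1.93. Chaperones (30 of 35 genes) had a median of -0.55, or 0.01 within ranges of somatic abundance, with Tcp1, a subunit of the cytosolic chaperonin, at -1.65. Hspb1, a small heat shock protein, stood at 1.33 but had 15.9 and 28.95 counts in positive-side and 2.10 and 0 in negative-side axons, and -1.46 with negative-side axons alone.

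Most cytoskeletal transcripts stood lower in axons than the median member. Neurofilament and tubulin genes (11 of 14 genes) had a median of -1.09, and 6 were 2-fold lower and 0 higher. Tubb3, the neuronal beta-tubulin, had 84.7 and 84.5 counts in the positive-side and 69.3 and 204 in the negative-side axonal libraries, against 1069.6 and 936 in deep and 956 and 904 in shallow soma (value -1.34). Nefl, the light neurofilament chain, had 25.7, 14.9, 31.5 and 49.97 counts in axons and 303 to 397 in soma (value -1.69). All 4 axonal libraries lay below all 4 somatic ones for both genes. Tubg1 and Tubb4a, a centrosomal and a neuronal tubulin, lay near the median member at -0.13 and 0.27.

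Actin and its regulators (31 of 31 genes) had a median of -0.78, with 12 genes 2-fold lower and 0 higher. Actb, the actin of growth cones whose RNA is localized by a zipcode-binding protein, had 723 and 901 counts in the positive-side and 254 and 534 in the negative-side axonal libraries on a somatic mean of 2705 (value -0.37). Its axonal mean, 603, was among the 10 highest, although counts are not per transcript length and levels of different genes are not compared here. Marcks, a membrane-bound actin organizer, was lowest at -2.08, with 20.3 to 39.2 counts in axons and 238 to 652 in soma. Msn, the membrane linker moesin, was highest at 0.57. Within its range of somatic abundance, the actin list's median was -0.03, so that its genes stood lower than the median member but near other genes as abundant in soma.

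Microtubule-associated proteins and stathmins (24 of 25 genes) had a median of -0.52, or 0.10 within ranges of somatic abundance. Map1b, a microtubule-associated protein with a described axonal RNA, had 562, 872, 370 and 751 counts in axons and a value of -0.38. Gap43, a growth cone membrane protein, had 80.1 and 121 counts in the positive-side and 59.9 and 122 in the negative-side libraries, 788 and 944 in deep and 525 and 441 in shallow soma (value -1.03). The axonal libraries of Gap43 lay below the somatic ones, by less against shallow (-0.58) than against deep soma (-1.51). Stmn2, a tubulin-binding stathmin, stood at -0.66 with overlapping libraries.

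Transcripts described as axonal in the wider literature were not high as a group. Of 37 such genes, 34 were members with a median of -0.61, and 10 were 2-fold lower and 0 higher. Within ranges of somatic abundance their median was 0.02. Ranbp1, a Ran-binding protein of retrograde injury signalling, was lowest at -2.19, with 4.05 to 17.2 counts in axons and 84.5 to 250.1 in soma. The highest were Stat3, a transcription factor of injury signalling (0.92), and Vim, an intermediate filament protein (0.51). Both rested on the positive-side libraries. For negative-side axons Stat3 was at -0.05 against deep and -0.22 against shallow soma. Vim, also an astrocyte marker here, had 1286 and 1264 counts in positive-side and 225 and 192 in negative-side axons. Kpnb1, the importin that carries injury signals back to the nucleus, stood at -0.71, Impa1, the inositol phosphatase whose RNA is localized to sympathetic axons, at -0.57, Nrn1, a membrane-anchored growth factor, at 0.15, and Atf4, the stress transcription factor, at -0.40. App, the amyloid precursor, had 425 and 314 counts in positive-side and 121 and 220 in negative-side axons, 820 and 760 in deep and 1084 and 1069.8 in shallow soma. Its value was 0.00, with axonal libraries on both sides of the somatic ones.

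Motor and presynaptic genes had medians below 0 with members on both sides. Kinesin, dynein and dynactin genes (29 of 32) had a median of -0.67, with 5 genes 2-fold lower and 0 higher. Their median was 0.02 within ranges of somatic abundance, so that they stood near other genes as abundant in soma. Dynlrb1 and Dynlt1, light chains of dynein, were lowest at -2.04 and -1.58. Kif5a, a kinesin heavy chain of axonal transport, had 177, 171, 162 and 146 counts in axons and a value of 0.02. Kif1c, another plus-end motor, stood at 0.73, but at -0.63 and -0.43 for negative-side axons against deep and shallow soma. Of 50 presynaptic genes, 43 were members (median -0.43), 9 were 2-fold lower and 2 higher. Syt4, a vesicle synaptotagmin, and Cplx2, a regulator of vesicle fusion, stood at -1.90 and -1.88. At the other end were Bsn, an active zone scaffold, and Rimbp2, which ties calcium channels to that zone.

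Rimbp2 had 83.9 and 41.5 counts in the positive-side and 246 and 161 in the negative-side axonal libraries, 15.5 and 16.8 in deep and 57.2 and 87.6 in shallow soma (value 3.38). On the common scale every axonal library lay above every somatic one, and the value was 1.44 to 5.47 over the 4 combinations. Bsn had 92.2, 95.5, 132 and 149 counts in axons, 79.8 and 67.1 in deep and 303 and 357 in shallow soma (value 1.01). Its libraries overlapped, and for positive-side axons against shallow soma the value was -0.17.

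Dendritic and postsynaptic transcripts had a median slightly below that of all members. Of 39 genes, 27 were members and 11 were left out for a low axonal mean, and 7 members were 2-fold lower and 3 higher (25.9% and 11.1%, against 10.2% and 15.9% of all members). Their median was -0.21, or -0.13 over 38 genes with no axonal minimum, and lay between -0.43 and -0.02 over the 4 combinations. It was 0.06 within ranges of somatic abundance and 0.13 with values centred on members with both means of at least 100. Ddn, dendrin, whose RNA is known from dendrites, had 28.0, 18.8, 17.9 and 29.7 counts in axons and 155 to 219 in soma (value -1.20), with no overlap. Nlgn1, a postsynaptic adhesion protein, and Homer1, a scaffold, stood at -1.47 and -1.27. Homer1 was at 0.25 for negative-side axons against shallow soma. Shank1, a scaffold of the postsynaptic density with dendritic RNA, had 87.7 and 102 counts in positive-side and 144 and 116 in negative-side axons, 66.3 and 47.6 in deep and 195 and 310 in shallow soma (value 1.33). Its value was 2.64 against deep and 0.58 against shallow soma. Arc, the activity-regulated dendritic transcript, was left out with an axonal mean of 8.32 and a somatic mean of 16.7.

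By the pooled means, ion channels lay higher than most lists. Of 34 voltage-gated channel genes, 25 were members with a median of 0.53, and 6 were 2-fold higher and 2 lower. Their median was 0.97 and 0.16 for negative-side axons against deep and shallow soma, and 0.46 and -0.19 for positive-side axons. Within ranges of somatic abundance it was 0.21, and with minimum means of 50 in both compartments -0.09. Cacna2d2, an auxiliary calcium channel subunit, was highest at 2.38 (1.08 within its range of somatic abundance), on 3.13 to 27.0 counts in axons. Cacna1i, a T-type calcium channel, had 30.2, 28.2, 47.3 and 39.2 counts in axons, 31.7 and 22.7 in deep and 50.5 and 43.8 in shallow soma (value 1.75), with no overlap on the common scale. Scn3a, a sodium channel of immature neurons, and Cacna2d3 were lowest at -1.45 and -1.38.

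Axon guidance genes (37 of 49, median 0.05) ran from the semaphorin receptor Nrp1 at -1.51 and the adhesion molecule Cntn1 at -1.49 to the netrin receptors Unc5c at 1.34 and Unc5b at 1.47. Unc5b was at 0.17 within its range of somatic abundance. Nrp1 was 33.6 to 52.7 counts in axons and 365 to 451 in soma, alike at both depths. Axon degeneration genes (20 of 26) had a median of 0.10. Nmnat2, the labile NAD-synthesizing survival factor, stood at 0.08 and Sarm1, the NAD-consuming executioner, at 0.35, each with overlapping libraries. Map3k13, a kinase of axon injury signalling, and Capn1, a calcium-activated protease, were highest at 2.00 and 1.84. Within their range of somatic abundance they stood at 0.70 and 0.55.

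Transcripts of nuclear proteins were not uniformly low in axons. Neuronal transcription factors (26 of 35) had a median of 0.07, with 4 genes 2-fold higher and 3 lower. Neurod6, a factor of pyramidal neurons, had the lowest value of all members. It had 13.6 and 15.7 counts in positive-side and 0 and 21.6 in negative-side axons, 524 and 680 in deep and 162 and 163 in shallow soma (value -3.12). Bhlhe22, another factor of these neurons, had 9.45 to 30.5 counts in axons, 477 and 708 in deep and 273 and 272 in shallow soma (value -2.64). For both, all axonal libraries lay below all somatic ones, and the values were -1.87 and -1.99 against shallow soma alone. Emx2, a cortical patterning factor, stood at the other end at 1.96, with 32.9 to 61.2 counts in axons and 37.0 to 53.2 in soma.

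Prox1, a factor of dentate granule cells, had values of opposite sign against the deep and the shallow somatic libraries. It had 22.7, 25.0, 7.35 and 17.6 counts in axons, 23.9 and 21.9 in deep soma and 135 and 185 in shallow soma (value -0.54). It stood at 1.33 against the deep libraries and at -1.35 against the shallow ones.

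Chromatin genes (30 of 31) had a median of 0.27, with 5 genes 2-fold higher and 0 lower, but the median was -0.21 and -0.11 against the shallow somatic libraries. Kdm6b, a histone demethylase, was highest at 2.26. Splicing factors and hnRNPs (39 of 49) had a median of -0.35, or 0.06 within ranges of somatic abundance, from Ptbp2, the neuronal splicing repressor, at -1.89 to Sf1, the branch point binder, at 1.26. Srrm2, a spliceosome scaffold with the highest axonal mean of that list (233), had 237 and 245 counts in deep and 1319.97 and 1273 in shallow soma, and stood at 1.62 against the first and -0.72 against the second.

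Proteins of RNA granules and mRNA transport (30 of 38 genes) had a median of 0.03, with 5 genes 2-fold higher and 4 lower. Cpeb3 and Cpeb1, which bind polyadenylation elements and control local translation, had values of 1.61 and 1.42 on axonal means of 10.1 and 12.8. Both had somatic means under 17.3, where the axonal minimum allows only values above 1. Cpeb1 was at -0.33 for positive-side axons against deep soma. Apc, which binds RNAs at microtubule ends, had 453, 527, 627 and 208 counts in axons and 432 to 1019.7 in soma (value 1.09), and its libraries overlapped. Rbm3, a cold-inducible RNA binding protein, and Elavl2, a neuronal RNA binding protein, were low at -1.80 and -1.41. Immediate early genes (16 of 29) had a median of 0.66, with 4 genes 2-fold higher and 1 lower, and medians from 0.15 to 1.16 over the 4 combinations. Within ranges of somatic abundance their median was 0.29. Nr4a1, an inducible nuclear receptor, and Npas4, a neuron-specific inducible factor, were highest at 2.31 and 2.11, or 1.01 and 0.81 within their range.

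Metabolic and proliferation genes lay near or above the median member. Cholesterol and fatty acid synthesis genes (22 of 24) had a median of 0.09, with 3 members 2-fold higher and 0 lower, and medians of -0.56 and -0.27 for negative-side and 0.22 and 0.51 for positive-side axons. Hmgcs1, an enzyme of sterol synthesis, stood at -0.34 on an axonal mean of 341. Glycolytic enzymes (15 of 16) had a median of -0.07, or 0.46 within ranges of somatic abundance, from Aldoc at -1.40 and Pfkp, a phosphofructokinase, at -1.12 to Pfkfb3, which makes its activator, at 0.74. Pkm, pyruvate kinase, had 237, 274, 79.8 and 81.0 counts in axons and 412 to 798 in soma (value -0.05), and its libraries overlapped. Of 34 cell cycle genes, 11 were members and 18 were left out for a low axonal mean (median 0.34, or 0.39 over 29 genes with no axonal minimum). The 11 members had a median of 0.21 within ranges of somatic abundance. Ccnd1, cyclin D1, had 52.9, 67.3, 56.7 and 47.3 counts in axons and 37.5 to 74.1 in soma (value 2.00), with no overlap on the common scale. Of the long non-coding RNA list, Snhg11 was the 1 member, at 0.28.

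**Figure D4:**
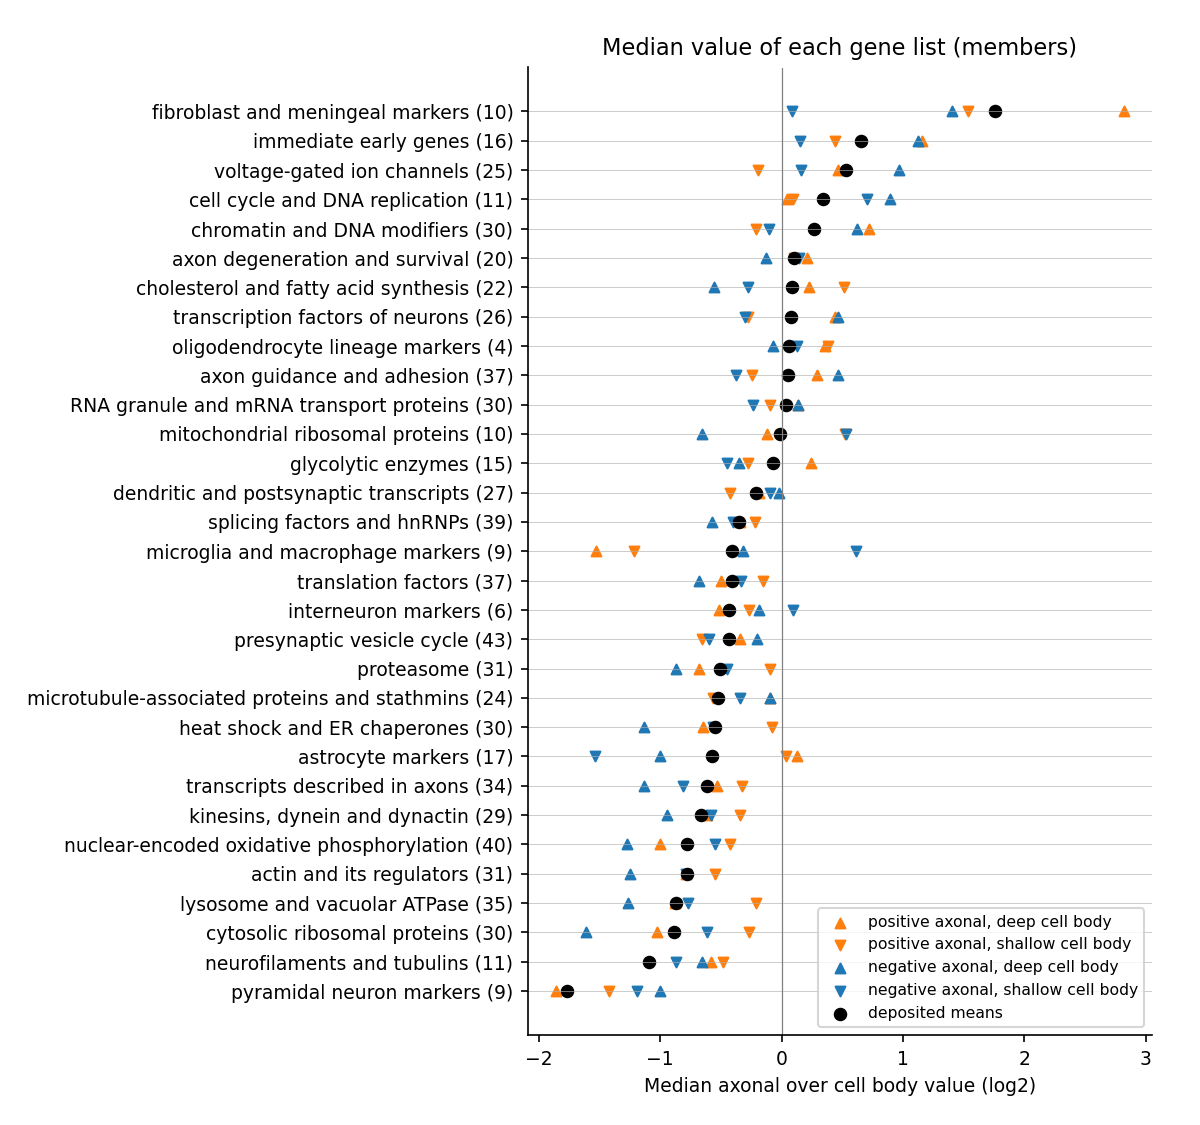
Median axonal over cell body value (log2) of the members of each gene list with at least 4 members (number in parentheses), from the deposited means (black) and from the recovered libraries in the 4 combinations of axonal side (orange positive, blue negative) and cell body depth (up triangle deep, down triangle shallow). Ribosomal, cytoskeletal, lysosomal and oxidative phosphorylation lists lie below 0 in every combination, and fibroblast markers, immediate early genes and cell cycle genes above 0 (cell cycle genes are at -0.18 with shares of the summed means).

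Of the 33 lists with a member, 20 had a median below 0, and 15 of these also did in all 4 combinations, over members recovered in every library. The fibroblast, immediate early and cell cycle lists were the 3 with medians above 0 by the means and in all 4 combinations. The cell cycle median (11 members, SD of 0.95 over axonal libraries) was -0.036 when the first negative-side axonal library was left out. With values centred within ranges of somatic abundance, 13 list medians lay below 0, since 9 of the 20 turned to above 0 and 2 others to below it. Centring on members with both means of at least 100 turned 3 of the 20 to above 0 (dendritic, glycolytic and mitochondrial ribosomal genes). Shares of the summed means turned 10 others to below 0, the cell cycle list among them at -0.18.

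Markers of cell types other than neurons were found in both compartments. Fibroblast and meningeal markers had the highest list median, 1.76, with 7 of 10 members 2-fold higher and 0 lower (1.33 over 13 genes with no axonal minimum). Col1a1, a chain of type I collagen, had 221 and 497 counts in the positive-side and 80.9 and 52.7 in the negative-side axonal libraries, 3.03 and 3.74 in deep and 37.0 and 31.3 in shallow soma (value 5.29). Every axonal library lay above every somatic one. Col1a2, the other chain, had 93.0 and 238 counts in positive-side but 8.40 and 35.1 in negative-side axons, and 3.70 to 33.7 in soma (value 4.15), so that its lowest axonal library overlapped the shallow somatic ones. Summed over the 21 marker genes in the tables, counts were 2008 and 3063 in positive-side and 546 and 494 in negative-side axons, 1175 and 1103 in deep and 2569 and 2549 in shallow soma. The median value of the list was 0.08 for negative-side axons against shallow soma and 2.82 for positive-side axons against deep soma. The part of these cells in the values of other members was not tested.

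Sparc and Fbln1, extracellular matrix proteins of the same list, had high values that rested on the positive-side libraries. Sparc had 836 and 1217 counts in positive-side and 127 and 109 in negative-side axons, 356 and 359 in deep and 1158 and 1264 in shallow soma (value 1.34). With negative-side axons alone its value was -0.76. Fbln1 stood at 1.63 by the means and at -0.13 with negative-side axons alone.

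Astrocyte markers had members far on both sides, and their direction turned with the setting. Of 17 members, 7 were 2-fold lower and 2 higher, with a median of -0.57 but of 0.46 within ranges of somatic abundance. Gfap, the astrocyte filament protein, had 1228 and 1529.9 counts in positive-side and 158 and 375 in negative-side axons, and a value of -0.24. Cst3, a secreted protease inhibitor, stood at 0.38. Apoe and Sparcl1, secreted proteins of astrocytes, were at -2.53 and -2.86 with somatic means of 7967 and 1699. Fgfr3, a growth factor receptor, had 62.7, 78.3, 25.2 and 27.0 counts in axons and 25.4 to 40.7 in soma (value 2.28), above soma in every axonal library on the common scale. The summed counts of the 19 marker genes were 5784 and 7105 in positive-side and 1179.5 and 2433 in negative-side axons. Over the 9 members recovered in every library, the list median was 0.12 and 0.03 for positive-side and -1.01 and -1.54 for negative-side axons. Gfap, Cst3, Apoe and Sparcl1 are not among these 9, so these medians are not directly comparable with that of all 17.

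Microglial markers were often left out, and the direction of the rest turned with the axonal side. Of 20 genes 9 were members (median -0.41) and 9 had an axonal mean under 10. The median was -1.53 and -1.22 for positive-side axons against deep and shallow soma, and -0.32 and 0.61 for negative-side axons. Among the latter were the complement subunits C1qa, C1qb and C1qc, with axonal means of 8.50, 7.64 and 5.28 on somatic means of 312, 258 and 293. Cx3cr1, the fractalkine receptor, was an exception with 18.9, 11.7, 29.4 and 33.8 counts in axons and 15.5 to 21.9 in soma (value 2.15, no overlap on the common scale). Its value was 0.85 within its range of somatic abundance. Summed microglial counts were 76.7 to 347 in axons, 2365 and 2879 in deep and 1467 and 1576 in shallow soma. Pyramidal neuron markers (9 of 11 genes) had a median of -1.76, with 5 members 2-fold lower and 1 higher (Rbfox3, a neuronal splicing regulator, at 1.07, or -0.22 within its range of somatic abundance), and summed means of 391 in axons and 3517 in soma. Oligodendrocyte markers had 4 members (median 0.06) and Gpr17 and Opalin had no somatic reads. Endothelial markers had 2 members and Cldn5 had no somatic reads. Interneuron markers had 6 members (median -0.43), and ependymal and erythrocyte markers had 0.

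The highest values belonged to single transcripts of several kinds. Tacr1, the substance P receptor, had 252 and 103 counts in the positive-side and 540 and 354 in the negative-side axonal libraries, 1.35 and 6.68 in deep and 30.3 and 12.5 in shallow soma. Its value of 6.41 is an axonal to somatic ratio 85.0-fold that of the median member, and every axonal library lay far above every somatic one. Hic2, a transcriptional repressor, had 115, 73.6, 228 and 249 counts in axons and 11.5 to 33.7 in soma (value 4.69). Both had higher values against deep than against shallow soma, 7.78 and 5.58 for Tacr1 and 5.40 and 4.09 for Hic2. Another 2 members, with LOC symbols, stood between Tacr1 and Col1a1 at 5.89 and 5.76.

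Of the 156 members with both means of at least 100, 18 were 2-fold higher and 35 lower than the median of all members. Their own median was -0.34, and relative to it 25 were higher and 12 lower. C3, the central complement component, had the highest value among them, with 679 and 622 counts in positive-side and 105 and 66.2 in negative-side axons, 188 and 179 in deep and 145 and 97.0 in shallow soma (value 3.06). All its axonal libraries were above the somatic ones on the common scale. Golga1, a Golgi tether, had 156, 87.6, 191 and 196 counts in axons and 81.5 to 138 in soma (value 2.34), also without overlap. Cry2, a repressor of the circadian clock, had 109, 78.3, 225 and 212 counts in axons and 93.5 to 216 in soma (value 1.83, no overlap). Myh9, a non-muscle myosin heavy chain, was at 1.35 without overlap.

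Other members of that abundance had high values by the pooled mean that did not hold on each axonal side. Cp, the ferroxidase ceruloplasmin, had 575 and 603 counts in positive-side but 29.4 and 60.8 in negative-side axons, 618 and 557 in deep and 87.5 and 78.2 in shallow soma. Its value was 1.71 overall and -0.92 with negative-side axons alone. Scd1, a fatty acid desaturase, was at 1.49 overall and -0.21 with negative-side axons, and Ccdc80, a matrix protein, at 1.67 and -0.07. Ncan, the proteoglycan neurocan, had 1105 and 1432 counts in positive-side and 294 and 288 in negative-side axons, 260 and 274 in deep and 1289.7 and 1749 in shallow soma (value 1.59), and was at -0.43 for negative-side axons against shallow soma. Nfix, a nuclear factor of glia and progenitors, was at 1.12 overall and -0.28 in that combination.

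**Figure D5:**
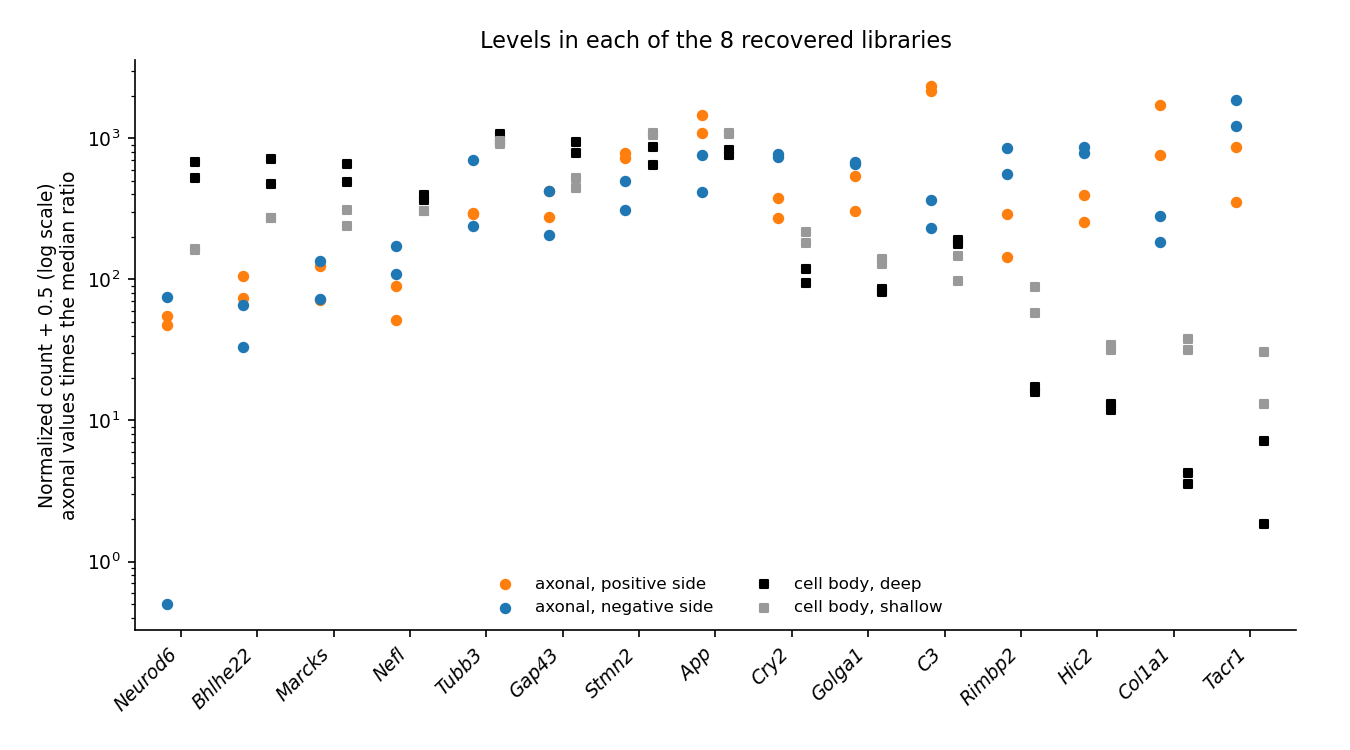
Normalized counts plus 0.5 (log scale) in each recovered library for 15 members ordered from low to high value, with axonal counts multiplied by 3.46 (circles, orange positive and blue negative side) and cell body counts as they are (squares, black deep and grey shallow). Axonal libraries lie below all cell body ones for Neurod6 to Gap43, overlap them for Stmn2 and App, and lie above them from Cry2 to Tacr1.

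The lowest values were shared by neuronal and glial transcripts. Beside Neurod6 and Bhlhe22 these were Gpm6a, a neuronal membrane glycoprotein (49.1 on average in axons against 1279.8 in soma, value -2.91), Sparcl1, and Fcrl2, an Fc receptor-like gene (8.31, 0, 18.9 and 27.0 counts in axons and 269 to 504 in soma, value -3.03). Among members with both means of at least 100, the lowest after Apoe and Ctsb were Calm3, a calmodulin gene (-1.89), Tubb5 (-1.61), Dcx, the doublecortin of immature neurons (-1.59), Aldoc, an aldolase of astrocytes (-1.40), and Cltc, the clathrin heavy chain (-1.35). Kidins220, a substrate of protein kinase D, had 129, 149, 103 and 86.4 counts in axons and 933 to 1063 in soma, alike at both depths (value -1.30). Ptprz1, a receptor phosphatase, was at -1.26.

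Members that were high in axons also differed in how they stood among the libraries of a compartment. The 2-fold higher members had a median deep over shallow somatic log2 ratio of -0.62 and a median positive over negative axonal ratio of -0.51, each relative to all members, and a median somatic mean of 22.3. For the 2-fold lower members these were 0.82, 0.29 and 184. Symbols without any somatic read had a median axonal mean of 1.26 (3749 symbols), and 39 of them (1.04%) reached an axonal mean of 10. Of the recovered axonal reads, 2.80% and 1.25% on the positive and 5.59% and 4.62% on the negative side belonged to identifiers without somatic reads. Among symbols left out for a low somatic mean, the highest axonal means were those of Ctgf, a matricellular growth factor (138 against 9.05), and Ltbp2, a matrix protein (116 against 4.26), named after their values were seen. Ctgf had 123 and 360 counts in positive-side and 44.1 and 23.0 in negative-side axons, and Ltbp2 111, 264, 71.4 and 16.2. Other such symbols, among them the next by axonal mean, had more counts on the negative side. The part of these differences between libraries in the values was not tested.

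Values rose slightly with the span of the gene in the genome. For the 5899 members matched to GRCr8 genes, the median value in 5 equal groups from the shortest to the longest span was -0.13, -0.01, -0.01, 0.07 and 0.15. The shortest and the longest group were at -0.17 and 0.23 against the deep somatic libraries and at -0.13 and 0.04 against the shallow ones.

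The treatment comparison within axons is a readout that did not choose the members, but it comes from the same axonal libraries. In the authors' deposited table for axons, 116 of 1321 genes with an adjusted p were called at an adjusted p under 0.05 on the positive side (8.78%) and 188 on the negative side (14.2%), by DESeq2 and with the numerator not named. Of the members, 863 were given an adjusted p by the authors' deposited table, and 95 were called positive (11.01%) and 9 negative (1.04%). Among the 133 of these that were 2-fold higher in axons, the authors' deposited table called 27 positive and 8 negative. Among the 619 between the limits it called 60 and 0, and among the 111 that were 2-fold lower 8 and 1, in the authors' deposited table. The lowest axonal mean of a called member was 44.9, against a median of 20.5 over all members. The axonal mean is also the numerator of the value and pools both treatments, so the counts by class are not independent of the value. Tacr1 (log2 fold change -1.26, SE 0.48, adjusted p = 0.0392), Hic2 (-1.27, SE 0.45) and Rimbp2 (-1.60, SE 0.51) were among the negative calls of the authors' deposited table. Col1a1 (2.28, SE 0.50) and C3 (2.80, SE 0.42) were among its positive calls in the authors' deposited table. In the authors' deposited table for soma, 0 of 18995 genes were called by DESeq2 (0%), and 0 members had an unadjusted p under 0.05. Each side of that comparison held 1 deep and 1 shallow library, which differed by an SD of 1.01 to 1.13. The absence of calls is therefore not a measure of how soma responded, and the part of this spread in it was not tested.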

How the data were processed

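Total RNA of the axonal and cell body compartments was sequenced from TruSeq libraries, per the labels' protocols. The submitters' processing notes name Trim Galore, TopHat2, SAMtools and DESeq2. Tool versions, build, annotation and read counter were not given in the sources used here. The authors deposited 1 table per compartment. Per the file headers, its columns are a mean of normalized counts over 4 libraries (a signal, counts divided by size factors), a log2 fold change between treatments with its standard error, a Wald score, a p-value and an adjusted p-value. All log2 fold changes of treatment, the score and the p-value are the authors' deposited values, used with the sign as deposited, since the numerator is not named.

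Reads per library were recovered here from the 15 digits of the deposited means, which are sums of 4 whole counts times a fixed unit per library, for means up to 1000. All 23698 axonal and 18876 of 18877 somatic means had exactly 1 solution. Of shifted decoy means, 1 of 1185 axonal and 5 of 1646 somatic had a solution, and 1171 of 1171 and 1602 of 1602 simulated means were recovered right. Recovered libraries carry a compartment and a side, but no sample title, and enter no test. Pseudocounts were 0.5 for values from recovered libraries and 0 for values from the means. Counting error is large at this depth: recovered members had a median of 89 axonal reads over 4 libraries (lowest 35) and of 43 in both shallow somatic libraries.

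Means from the 2 tables were normalized separately, so ratios were centred on the members' median and no test was run between compartments. Members, gene lists (35, of which 33 had a member) and rules were chosen with earlier results of these data known. Genes named are the 12 highest and 12 lowest values among members with both means of at least 100, the 5 highest and 5 lowest of all, the 10 highest axonal means, in each list the 2 highest, the 2 lowest and the highest axonal mean, and a set of genes of known compartment. Symbols beginning with LOC, RGD or MGC (432 members) were counted and not named. Some genes that these rules pick are not reported here. Genes with near-identical copies, such as ribosomal protein and tubulin genes, may share reads, which makes their values uncertain. 1 member with a LOC symbol held 11.1% of the summed axonal means. Start sequences came from RefSeq (GRCr8). Alternatives changed the minimum, the pseudocount, the centring and scaling, the axonal side and somatic depth, and left out each library. Python 3.11.15, numpy 2.4.6, pandas 2.3.3, numba 0.67.0 and matplotlib 3.10.9 were used.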

Additional observations from a re-analysis of the deposited data

Results flagged for a closer look

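Identifiers without a gene symbol were not members, yet they showed axonal signal of their own. Of the 1265 such identifiers with both means of at least 10, 384 (30.4%) were at least 2-fold higher in axons than the median member, against 15.9% of members, and 99 (7.83%) were 2-fold lower. Their median value was 0.34. Another 17 identifiers without a symbol had an axonal mean of at least 10 and no somatic reads. The files do not pair these identifiers with names.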

How the results depend on the processing

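The number of members at least 2-fold higher, 954, was 94 and 25 with minimum means of 50 and 100 in both tables, where fewer genes remain. It was 1510 with values centred on members with both means of 100, 435 with shares of the summed means, 1521 for negative-side axons against deep soma and 430 within ranges of somatic mean. The number 2-fold lower, 610, was 50 and 12 with minimum means of 50 and 100, 972 with the minimum in soma alone and a pseudocount of 1, 241 and 1703 with the other centring and the shares, and 222 within ranges of somatic mean. Against deep soma alone it was 1115, against shallow soma alone 318, with negative-side axons alone 960, for positive-side axons against deep and shallow soma 1034 and 404, and for negative-side axons against deep soma 1329. Leaving out 1 library at a time gave 810 to 1075 higher and 408 to 791 lower members. Beyond what the construction of an alternative shows, the cause was not tested.

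Of the list medians, 640 of 843 alternative values lay within the spread over axonal libraries, and of the named genes 3442 of 3983 did. The sign of 14 genes called 2-fold turned in 23 cases. With negative-side axons alone, Ccdc80 was at -0.071, Cp at -0.92, Fbln1 at -0.13, Hspb1 at -1.46, Scd1 at -0.21 and Sparc at -0.76. For negative-side axons against deep soma, Ccdc80 was at -0.23, Cp at -1.83, Hspb1 at -0.79 and Scd1 at -0.32. Against shallow soma they gave Ccdc80 -0.023, Fbln1 -0.79, Homer1 0.25, Hspb1 -1.97, Ncan -0.43, Nfix -0.28, Scd1 -0.22 and Sparc -1.40. Positive-side axons gave Bsn -0.17 against shallow and Cpeb1 -0.33 against deep soma. Within ranges of somatic mean, Dlgap2 was at -0.094, Gad2 at -0.28 and Rbfox3 at -0.22.

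The axonal and the shallow somatic libraries gave few reads per member, so values near the minimum of 10 are imprecise. No paired analysis was possible because the deposited means carry no replicate numbers and the comparison of compartments rests on no test. The depth of the libraries and their side could not be matched to treatments.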
